A study of Mus musculus with 15 samples.

Results

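Carboxylesterases are serine hydrolases of the endoplasmic reticulum that split ester and amide bonds in drugs, other foreign compounds and neutral lipids. The mouse genome carries many copies of them in tandem, and the liver is one of their main sites. Several are handled as drug-metabolising enzymes, and others, such as Ces1d, also release triglyceride for secretion in lipoproteins. The 10 genes described here are the hepatic carboxylesterases Ces1b, Ces1c, Ces1d, Ces1e, Ces1f, Ces1g, Ces2a, Ces2c, Ces2e and Ces3a. They were taken by symbol from a raw count table of 57132 gene identifiers, and all 10 were in the table and passed the filter on low counts, as did 18181 genes in all. The 10 other genes whose names begin with Ces serve as comparison.

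Liver RNA came from male C57BL/6J mice, an inbred laboratory strain, aged 8 weeks when the feeding began and killed after 18 weeks of diet. Chow mice ate standard chow (4 libraries). Vehicle and SR9009 mice (5 libraries each) ate a high-fat diet, amino-acid adapted and deficient in choline, a model of steatohepatitis with fibrosis, and for the last 6 weeks were injected intraperitoneally each day with 15% Kolliphor ELP in saline (Vehicle) or with SR9009 at a daily 100 mg/kg. The compound activates the clock repressors REV-ERB alpha and beta. Whether Chow mice also had injections, and at what hour livers were taken, is not stated in the labels, so diet and injection cannot be told apart in comparisons with Chow.

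Total counts per library ran from 29950509 to 45542335, and single members held from 791 to 105209 counts in a library, so counting error was small beside the spread between mice. Levels are in CPM, counts relative to library size, here scaled by TMM, a factor that corrects for differences in RNA composition. The factors were 0.753 to 0.824 in Chow and 1.02 to 1.15 in the diet-fed libraries, which makes comparisons with Chow depend on the scaling. All 9 hepatocyte markers were found in every group, with a summed level of 110783 to 153630 CPM in Chow, 87019 to 96441 CPM in Vehicle and 76386 to 95337 CPM in SR9009. Kidney and intestine also express carboxylesterases. The 5 kidney markers summed to at most 0.115 CPM in any library, with Kap at 0. The 6 intestine markers summed to 46.6 to 106.9 CPM, nearly all of it Fabp2. Sis, Cdx1, Cdx2 and Lct were each at most 0.235 CPM, and Vil1 was at 0.206 to 0.596 CPM in Chow, 3.67 to 5.32 CPM in Vehicle and 2.91 to 4.76 CPM in SR9009, higher in Vehicle than in Chow (log2 fold change 3.35, adjusted p = 9.69e-08 by edgeR). Its part in the results was not tested.

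All 20 genes of the family lie in a row of clusters on chromosome 8, with the Ces1 genes first, then Ces5a, the Ces2 genes, Ces3a, Ces3b and Ces4a. The RefSeq promoter table (build GRCm38.p6) held windows of 300 bases, from 250 before the transcription start to 50 after it, for 7 of the 10 members. The windows of Ces1b and Ces1c are shown because they are near copies of each other, while the RNA of the genes moved in opposite directions on the diet. They run over chr8:93079891-93080190 and chr8:93131234-93131533, both on the minus strand. Over 285 aligned columns they were 90.2% identical, with a longest identical run of 58 bases. Capitals mark TTATGTAA, the D-box bound by clock-related PAR bZIP factors, and AGTTCA, a hexamer read by nuclear receptors.
Ces1b: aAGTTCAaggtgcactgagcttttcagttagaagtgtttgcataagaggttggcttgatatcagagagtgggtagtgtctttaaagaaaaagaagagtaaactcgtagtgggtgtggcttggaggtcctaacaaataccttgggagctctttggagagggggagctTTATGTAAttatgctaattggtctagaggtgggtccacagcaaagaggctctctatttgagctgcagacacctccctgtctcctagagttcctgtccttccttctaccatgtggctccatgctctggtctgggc
Ces1c: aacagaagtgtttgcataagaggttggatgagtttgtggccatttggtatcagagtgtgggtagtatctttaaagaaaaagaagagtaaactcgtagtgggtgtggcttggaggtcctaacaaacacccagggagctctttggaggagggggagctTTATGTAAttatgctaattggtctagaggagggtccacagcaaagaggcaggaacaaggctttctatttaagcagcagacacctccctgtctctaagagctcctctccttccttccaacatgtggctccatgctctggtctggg

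The windows of Ces2a, Ces2c and Ces2e are shown because, of these Ces2 genes with related windows, only Ces2a was called under SR9009. They lie on the plus strand, over chr8:104733753-104734052, chr8:104846818-104847117 and chr8:104926010-104926309. Ces2a and Ces2c were 69.4% identical over 291 aligned columns, Ces2a and Ces2e 69.4% over 265, and Ces2c and Ces2e 67.8% over 267. Capitals mark AGGTCA, another hexamer read by nuclear receptors, which stands in the Ces2a window and in neither of the other 2. This hexamer is common, in 16.3% of 32851 promoters, and whether it bears on the call of Ces2a was not tested.
Ces2a: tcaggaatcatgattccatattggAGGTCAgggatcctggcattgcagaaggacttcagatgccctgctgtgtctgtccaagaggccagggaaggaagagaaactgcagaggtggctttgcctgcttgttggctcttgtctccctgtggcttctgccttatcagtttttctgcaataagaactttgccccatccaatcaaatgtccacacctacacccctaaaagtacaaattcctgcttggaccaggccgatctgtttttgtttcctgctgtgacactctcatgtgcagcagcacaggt
Ces2c: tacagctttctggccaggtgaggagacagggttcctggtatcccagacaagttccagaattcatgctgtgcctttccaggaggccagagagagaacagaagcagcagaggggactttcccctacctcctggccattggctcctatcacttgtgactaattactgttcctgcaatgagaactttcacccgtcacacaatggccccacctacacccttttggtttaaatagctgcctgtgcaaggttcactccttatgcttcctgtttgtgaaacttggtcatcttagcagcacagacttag
Ces2e: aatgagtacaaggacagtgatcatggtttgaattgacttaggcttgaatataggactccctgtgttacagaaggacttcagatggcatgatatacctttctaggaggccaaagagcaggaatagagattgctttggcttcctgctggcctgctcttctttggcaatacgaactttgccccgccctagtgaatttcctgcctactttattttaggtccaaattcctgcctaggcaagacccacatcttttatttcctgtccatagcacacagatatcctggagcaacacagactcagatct

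The search covered both strands. TTATGTAA occurred in the windows of 4 members (Ces1b, Ces1c, Ces1e and Ces1g), at 84, 94, 81 and 232 bases before the start, and in 0.938% of 32851 promoters of the same length. RefSeq gives Ces1b a second, overlapping window from another start, in which the same TTATGTAA lies 7 bases before the start and AGTTCA 172 bases before it. The near-copy windows of Ces1b and Ces1c are not independent occurrences, while those of Ces1e and Ces1g were 53.6% identical to each other and 53.8% to 64.9% identical to the printed windows of Ces1b and Ces1c. This motif was added to the search after it had been seen in them. AGGTCA occurred in 16.3% of all promoters and AGTTCA in 14%. The response element of REV-ERB and ROR, AGGTCA with its A/T-rich flank, occurs in 0.219% of promoters, and CAAAGTCCA, a site of HNF4, in 0.475%. Neither is in the window of a member, and the same holds for direct repeats of AGGTCA or AGTTCA, alone or mixed, with a gap of 3 or 4 bases.

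In Vehicle versus Chow, which asked how the diet with vehicle injections changed the liver, 8 of the 10 carboxylesterases fell, 1 (Ces1b) rose and 1 (Ces1g) did not pass the test. The median log2 fold change of the 10 was -1.10, against 0.02 for all genes tested. Calls are by edgeR's quasi-likelihood test with Benjamini-Hochberg adjustment over all tested genes, at an adjusted p under 0.05. Of all genes, 55.2% were called and 25.4% were lower. Abundant genes fell more often, and the members are abundant: of the 1893 genes at or above the mean level of the lowest member, Ces1b (84.2 CPM), 61% were lower. The share of members that fell (8 of 10) is thus nearer to that of abundant genes than to that of all genes. The Vehicle libraries all lay below the Chow libraries for the 8 that fell, as for 20.7% of all genes. A fall of 2-fold or more was found for 5 members and for 6.01% of all genes. Neither of these shares was taken among the abundant genes alone, which fell more often. Over the same comparison 6 of the 9 hepatocyte markers were lower (median -0.77; with library totals 2 were higher), 7 of 8 macrophage, 7 of 8 stellate and all 6 cholangiocyte markers were higher, and in bulk tissue fewer hepatocytes and less RNA per hepatocyte cannot be told apart.

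**Figure D1:**
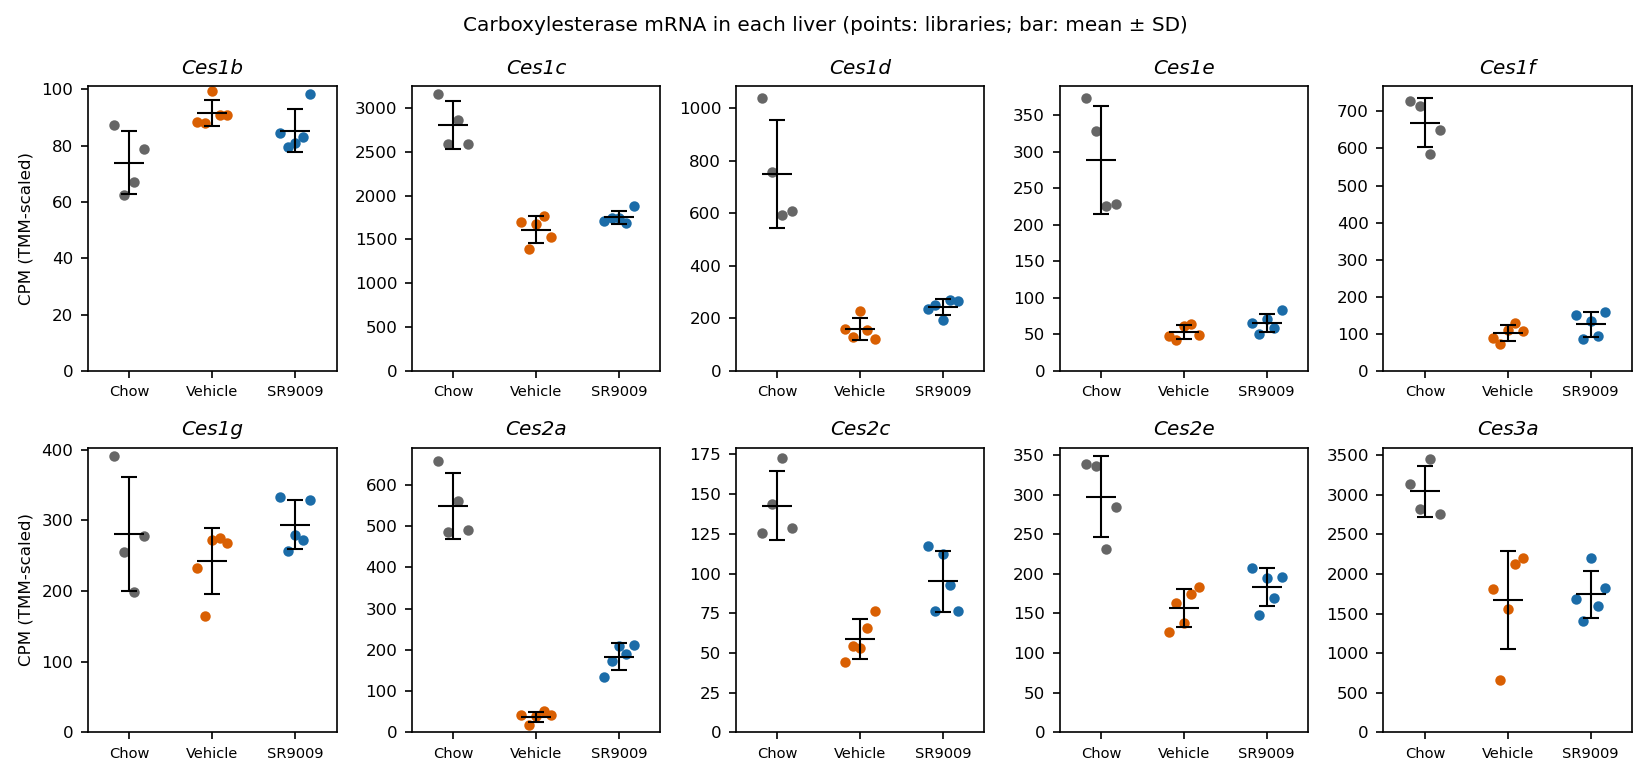
CPM (TMM-scaled, linear axis from 0) of each of the 10 carboxylesterases in every library of the 3 groups. Points are libraries and bars are the mean with its SD. Ces2a lies between 18.6 and 51.4 CPM in Vehicle and between 134.5 and 212 CPM in SR9009, while Ces1g overlaps in all groups.

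Ces2a (ENSMUSG00000055730.17), a microsomal enzyme of the Ces2 subfamily, fell most. It was at 658, 486, 560.3 and 490.1 CPM in the Chow libraries 1 to 4 and at 41.3, 18.6, 38.7, 51.4 and 41.9 CPM in the Vehicle libraries 1 to 5. Every Vehicle library was far below every Chow library, and Vehicle 2 was the lowest. The fall was 14.3-fold (95% interval 10.1 to 20.3; log2 fold change -3.84 ± 0.24 SE, adjusted p = 1.04e-08).

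The other Ces2 members fell by less. Ces2c (ENSMUSG00000061825.11), an enzyme known to hydrolyse di- and triglyceride in mouse liver, was at 125.5, 143.8, 172.9 and 128.8 CPM in Chow and at 44.6, 54.3, 53.1, 65.6 and 76.6 CPM in Vehicle. No Vehicle library reached the lowest Chow library, and the fall was 2.43-fold (log2 fold change -1.28 ± 0.17 SE, adjusted p = 1.08e-05). Ces2e (ENSMUSG00000031886.15) was at 338, 336.5, 230.9 and 283.9 CPM in Chow and at 126.7, 163.4, 138.1, 174.1 and 183.8 CPM in Vehicle, again without overlap. It fell 1.89-fold (log2 fold change -0.92 ± 0.14 SE, adjusted p = 3.33e-05).

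Among the Ces1 genes, 3 neighbours fell between 4.71 and 6.53-fold. Ces1f (ENSMUSG00000031725.9) was at 729, 713, 584 and 650.4 CPM in Chow and at 90.1, 73.8, 110.9, 130.4 and 107.3 CPM in Vehicle, a 6.53-fold fall (log2 fold change -2.71 ± 0.19 SE, adjusted p = 2.8e-08). Ces1e (ENSMUSG00000061959.14), egasyn, holds beta-glucuronidase in the endoplasmic reticulum. It was at 374, 329, 226 and 229 CPM in Chow and at 48.5, 42.4, 61.4, 64.5 and 49.3 CPM in Vehicle, a 5.44-fold fall (log2 fold change -2.44 ± 0.18 SE, adjusted p = 4.94e-08). Ces1d (ENSMUSG00000056973.7) is triacylglycerol hydrolase, which supplies lipid for very low density lipoprotein. It was at 1038, 759, 593 and 610.0 CPM in Chow and at 159, 129.8, 229, 157 and 121.5 CPM in Vehicle, a 4.71-fold fall (log2 fold change -2.23 ± 0.19 SE, adjusted p = 2.21e-07). For each of the 3 genes every Vehicle library lay below every Chow library, and Chow 1 was the highest library.

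The most abundant members fell less in proportion. Ces1c (ENSMUSG00000057400.15), a secreted esterase of rodent plasma, was at 3163, 2593, 2867 and 2592 CPM in Chow and at 1697, 1389.9, 1680.2, 1769 and 1529 CPM in Vehicle, a 1.74-fold fall without overlap (log2 fold change -0.80 ± 0.10 SE, adjusted p = 3.98e-06). Ces3a (ENSMUSG00000069922.13) was at 3132, 2823, 3459 and 2758 CPM in Chow and at 1811, 665, 1564, 2129.7 and 2200.0 CPM in Vehicle. Vehicle 2 stood well below the other Vehicle libraries, but no Vehicle library reached the lowest Chow library. The fall was 1.82-fold (log2 fold change -0.86 ± 0.25 SE, adjusted p = 0.00866). With library totals in place of TMM the call on Ces3a was lost, at -0.39 (adjusted p = 0.15), while the median of all genes moved from 0.02 to 0.50.

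Ces1b and Ces1g did not fall. Ces1b (ENSMUSG00000078964.3) was at 87.2, 62.4, 67.2 and 78.8 CPM in Chow and at 88.5, 88.1, 99.3, 90.9 and 90.8 CPM in Vehicle, a rise of 1.24-fold (95% interval 1.08 to 1.42; log2 fold change 0.31 ± 0.09 SE, adjusted p = 0.0112). The call was lost among libraries with few olfactory-type receptor genes detected (0.30, adjusted p = 0.0812). Of the Vehicle libraries, that fit held only Vehicle 4 and Vehicle 5. Chow 1 came within 1 CPM of the Vehicle libraries, and 29.8% of all genes were called higher. Ces1g (ENSMUSG00000057074.7), whose loss in mice is known to raise hepatic lipid synthesis, was at 392, 255.5, 199.3 and 277.9 CPM in Chow and at 232.8, 164.3, 272.5, 275.1 and 267.9 CPM in Vehicle. The groups overlapped, and the log2 fold change of -0.21 (95% interval -0.59 to 0.17, adjusted p = 0.329) turned to 0.27 with library totals.

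The order of the members by level changed with the diet. Per kilobase of exon, Chow livers held most Ces1c (1207 CPM per kb), Ces3a (1158), Ces1d (317), Ces2a (233) and Ces1f (204), then Ces1e (132), Ces1g (118), Ces2e (110.2), Ces2c (62.1) and Ces1b (37.6). Neighbours in that order overlapped between libraries except Ces3a and Ces1d, Ces1f and Ces1e, Ces2e and Ces2c, and Ces2c and Ces1b. Ces2a stood at rank 4 of 10 in Chow, at rank 10 in Vehicle (16.3 CPM per kb, overlapping Ces1e at 24.3) and at rank 5 in SR9009 (78.0 CPM per kb, overlapping Ces1d and Ces2e). Ces1g moved from rank 7 to rank 3 in both diet-fed groups, at 101.6 CPM per kb in Vehicle and 123 in SR9009, overlapping Ces1d in each. Its own level was not called against Chow in either group in the main fit. The 10 genes together made up 8899 ± 836 CPM in Chow (SD, n = 4), 4190.5 ± 826 in Vehicle (SD, n = 5) and 4775 ± 401 in SR9009 (SD, n = 5). Ces1c and Ces3a gave most of each sum, at 31.5% and 34.3% in Chow, 39.5% and 38.6% in Vehicle and 36.9% and 36.3% in SR9009. Ces2a gave 6.15% in Chow, 0.895% in Vehicle and 3.85% in SR9009.

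**Figure D2:**
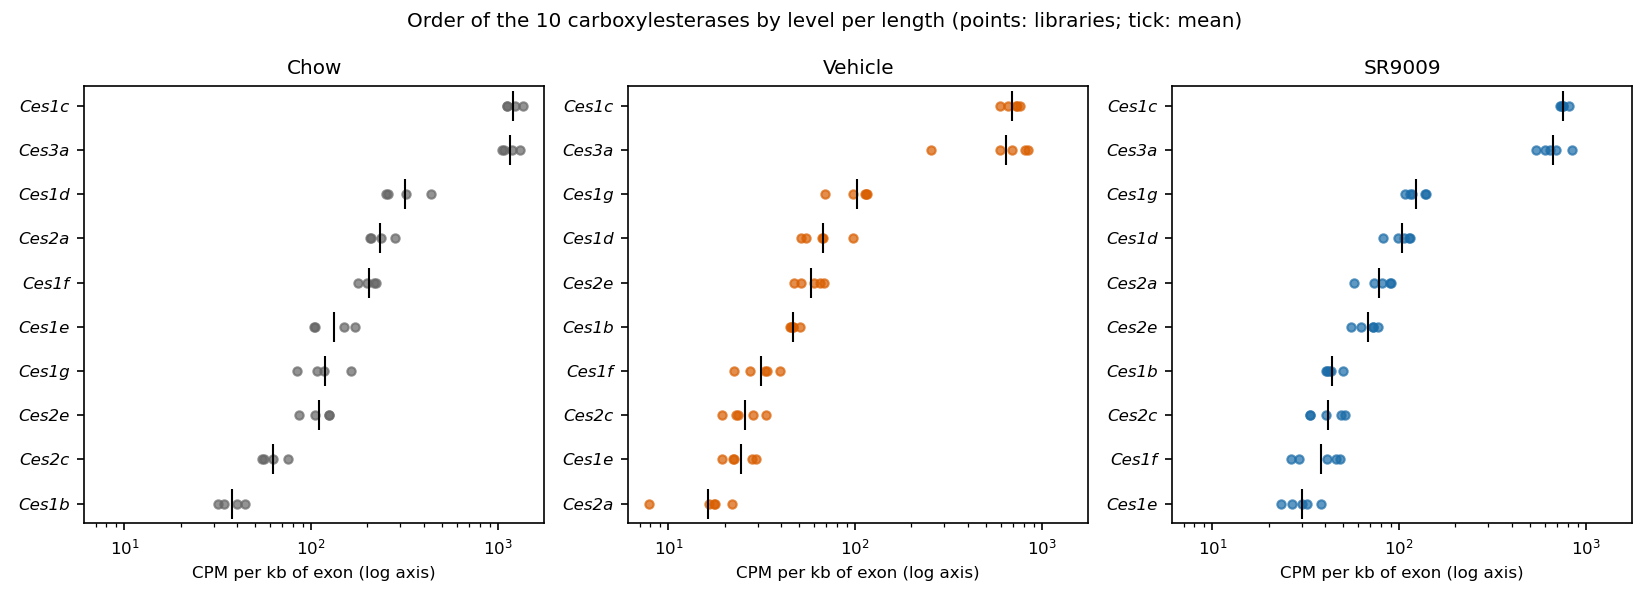
CPM per kilobase of exon (log axis) of the 10 members in Chow, Vehicle and SR9009, each panel ordered by the group mean. Points are libraries and ticks are means. Ces2a is at 233 in Chow, 16.3 in Vehicle and 78.0 in SR9009.

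In SR9009 versus Vehicle, which asked what the compound did in diet-fed livers, Ces2a rose and none of the other 9 members passed the test. Ces2a was at 134.5, 172.7, 210.3, 190.0 and 212 CPM in the SR9009 libraries 1 to 5, against 18.6 to 51.4 CPM in Vehicle. Its lowest SR9009 library was above its highest Vehicle library, as was so for 0.891% of all genes. The rise was 4.79-fold (95% interval 3.48 to 6.59; log2 fold change 2.26 ± 0.22 SE, adjusted p = 0.00012), the fifth smallest p of all genes. Only 0.242% of all genes were called, and 0.165% were called higher. Of the 1893 abundant genes, 1.11% were called in either direction. Ces2a was called in 24 of 25 alternatives, with values from 1.89 to 2.53. The exception was the fit of the 3 Vehicle and 3 SR9009 libraries with many olfactory-type receptor genes detected (158 to 243 of 1985), where it was 2.53 with an adjusted p of 0.063. In the diet-fed libraries with few of them (63 to 82), which were Vehicle 4 and 5 and SR9009 1 and 3, it was 1.89 (adjusted p = 0.0212). Without Vehicle 2 it was 2.09.

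Ces2c had the next smallest p among the members and missed the threshold. Its SR9009 libraries were at 117.5, 76.7, 112.3, 92.8 and 76.6 CPM, against 44.6 to 76.6 CPM in Vehicle, so the groups met at SR9009 5 and Vehicle 5. The log2 fold change was 0.69 ± 0.16 SE, or 1.62-fold (95% interval 1.28 to 2.04; adjusted p = 0.117 by edgeR). It was called in 3 of 25 alternatives: DESeq2 (adjusted p = 0.00383), receptor class as a term (0.00139), and without Vehicle 5, where edgeR gave 0.81 (adjusted p = 0.0452).

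Ces1d was at 233.9, 251.8, 193.8, 271.7 and 267.9 CPM in SR9009, and Vehicle 3, at 229 CPM, overlapped its lowest library. Its log2 fold change was 0.61 ± 0.18 SE (95% interval 0.23 to 1; adjusted p = 0.283 by edgeR), and it was called in 0 of 25 alternatives. The other 7 members had log2 fold changes from -0.10 (Ces1b) to 0.31 (Ces1e), with adjusted p from 0.765 to 0.989, and overlapped between the groups. Their 95% intervals ran from -0.29 to 0.08 for Ces1b, -0.07 to 0.31 for Ces1c, -0.05 to 0.67 for Ces1e and -0.08 to 0.66 for Ces1f. Those of Ces1g, Ces2e and Ces3a ran from -0.08 to 0.64, -0.05 to 0.50 and -0.45 to 0.56. The median over the 10 was 0.28, against 0 for all genes, and 3 members against 3.91% of all genes were higher at an unadjusted p under 0.05. No hepatocyte, macrophage, stellate, cholangiocyte or endothelial marker passed the test in this comparison. Mesothelium markers summed to 19.1 to 86.8 CPM in SR9009 and 7.95 to 45.4 CPM in Vehicle, and their part in these values was not tested.

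**Figure D3:**
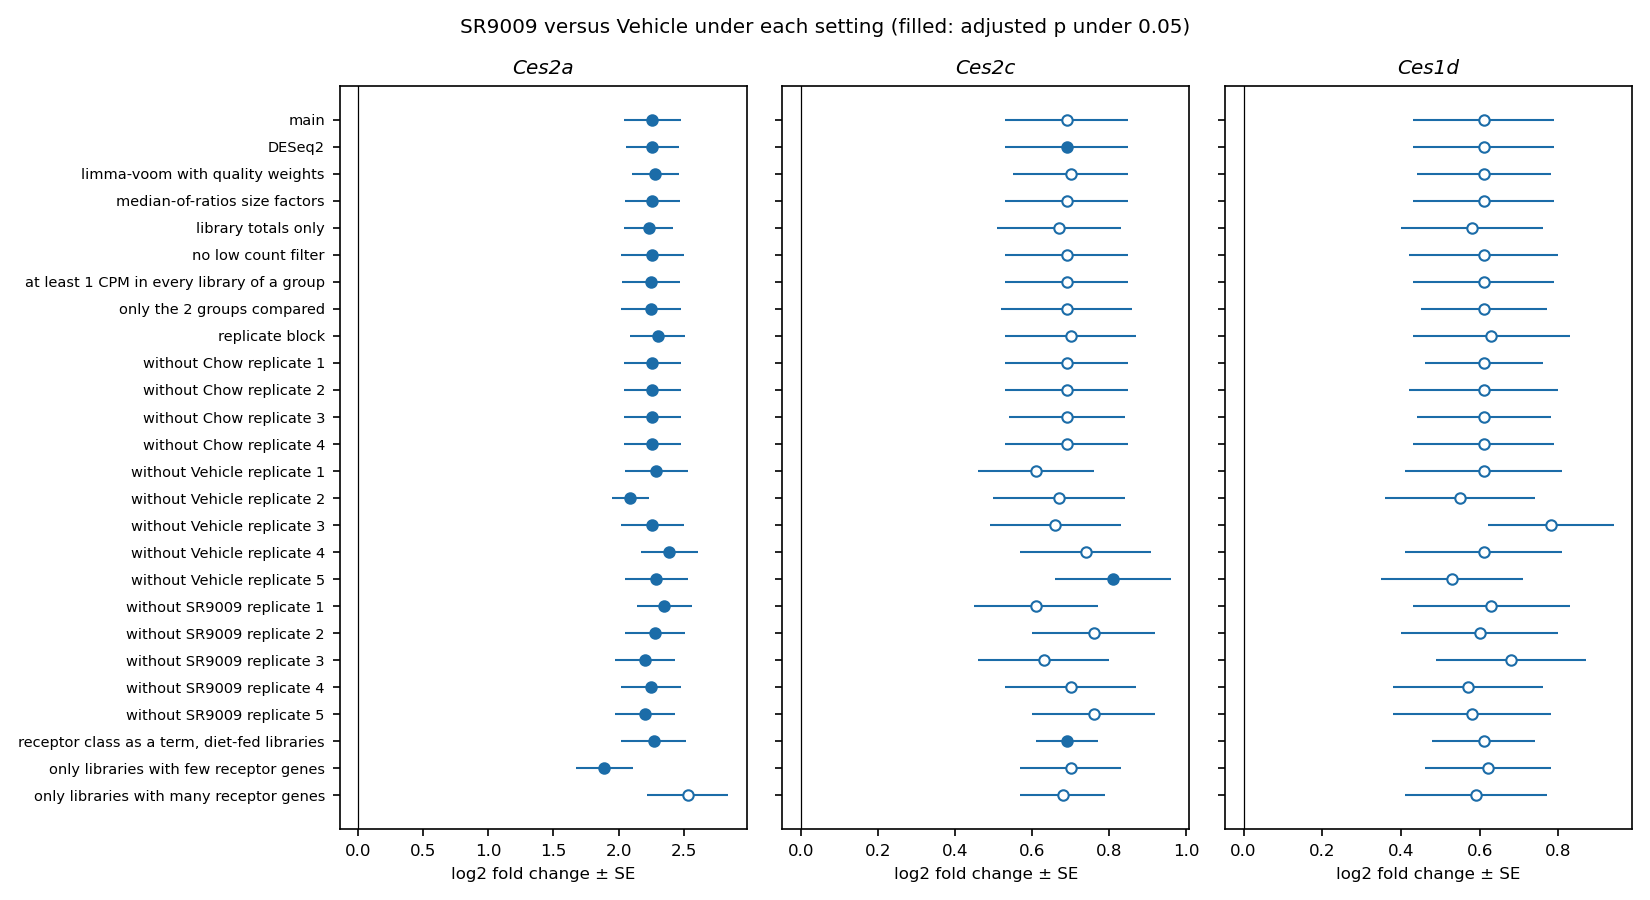
Log2 fold change of Ces2a, Ces2c and Ces1d in SR9009 versus Vehicle (bars are 1 SE) under the main setting and each of 25 alternatives, with a scale of its own for each gene. Filled points passed an adjusted p under 0.05, as Ces2a did in 24 alternatives, Ces2c in 3 and Ces1d in 0.

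Ratios of counts within a library do not depend on the scaling of that library. The ratio of Ces2a to Ces2c was 3.24 to 5.24 in Chow, 0.343 to 0.927 in Vehicle and 1.14 to 2.77 in SR9009, so the 3 groups did not overlap. The ratio of Ces2a to Ces2e behaved likewise, at 1.44 to 2.43, 0.114 to 0.326 and 0.647 to 1.16. Ces1g to Ces1f, by contrast, was 0.341 to 0.537 in Chow, 2.11 to 2.58 in Vehicle and 2.08 to 2.96 in SR9009. It separated Chow from both diet-fed groups, which overlapped each other. Ces1b to Ces1c, the pair with near-identical promoter windows, went from 0.0235 to 0.0304 in Chow to 0.0514 to 0.0634 in Vehicle and 0.0457 to 0.0523 in SR9009. These ratios are descriptions of genes chosen after the values were seen, and were not tested.

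**Figure D4:**
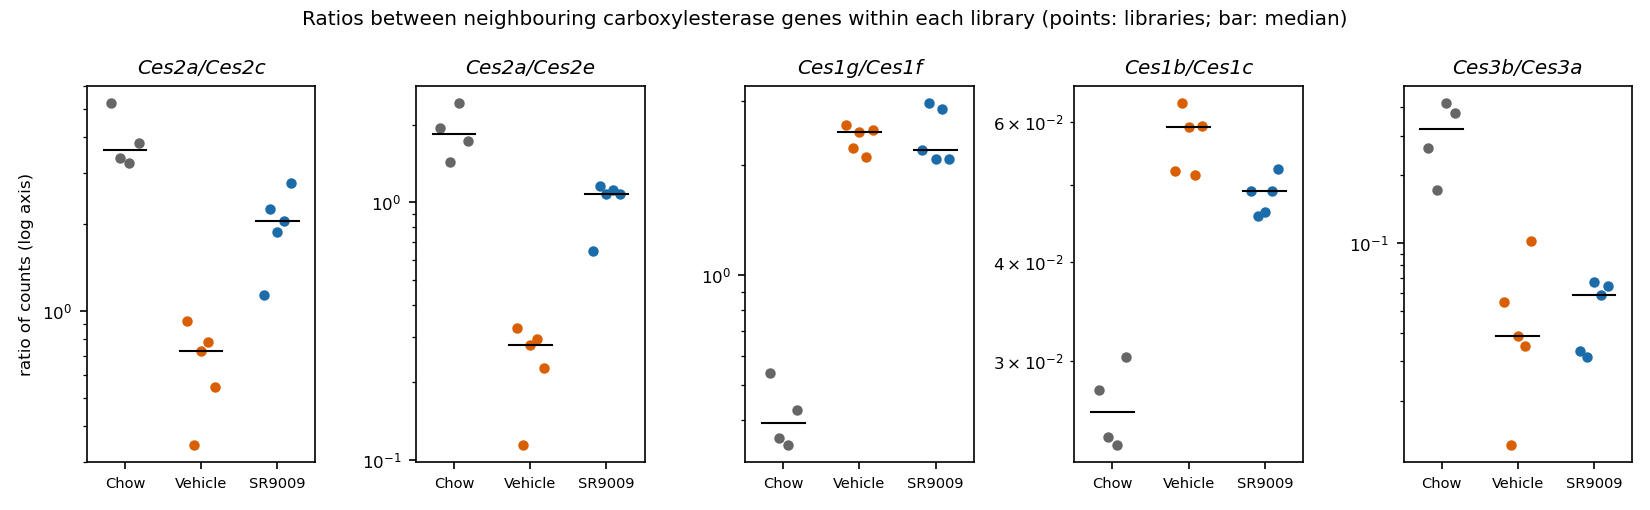
Ratio of counts of 5 pairs of Ces genes within each library (log axes), with points for libraries and bars for medians. Ces2a to Ces2c and Ces2a to Ces2e separate all 3 groups, while Ces1g to Ces1f is 0.341 to 0.537 in Chow and at least 2.08 in the diet-fed libraries.

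In SR9009 versus Chow, 8 members were lower and 2, Ces1b and Ces1g, did not pass the test, beside 56.2% of all genes called and 25.7% lower (21% without overlap, and 56.7% lower among the 1893 abundant genes). This comparison shares its Chow libraries with the first and its SR9009 libraries with the second. Ces2a stayed 2.98-fold below Chow (95% interval 2.16 to 4.13; log2 fold change -1.58 ± 0.22 SE, adjusted p = 2.29e-05), and its highest SR9009 library, at 212 CPM, was under its lowest Chow library, at 486 CPM. Ces1f was -2.42, Ces1e -2.13 and Ces1d -1.62, beside -2.71, -2.44 and -2.23 in Vehicle versus Chow. Ces2c was -0.58 ± 0.16 SE (adjusted p = 0.00679), Ces2e -0.70, Ces1c -0.68 and Ces3a -0.80. With library totals, the calls on Ces2c (-0.14), Ces2e (-0.25) and Ces3a (-0.36) were lost and Ces1b (0.66) and Ces1g (0.52) were called higher. The call on Ces2c was also lost among libraries with few receptor genes (-0.31, adjusted p = 0.0899), and that on Ces3a without a filter on low counts (adjusted p = 0.0596).

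**Figure D5:**
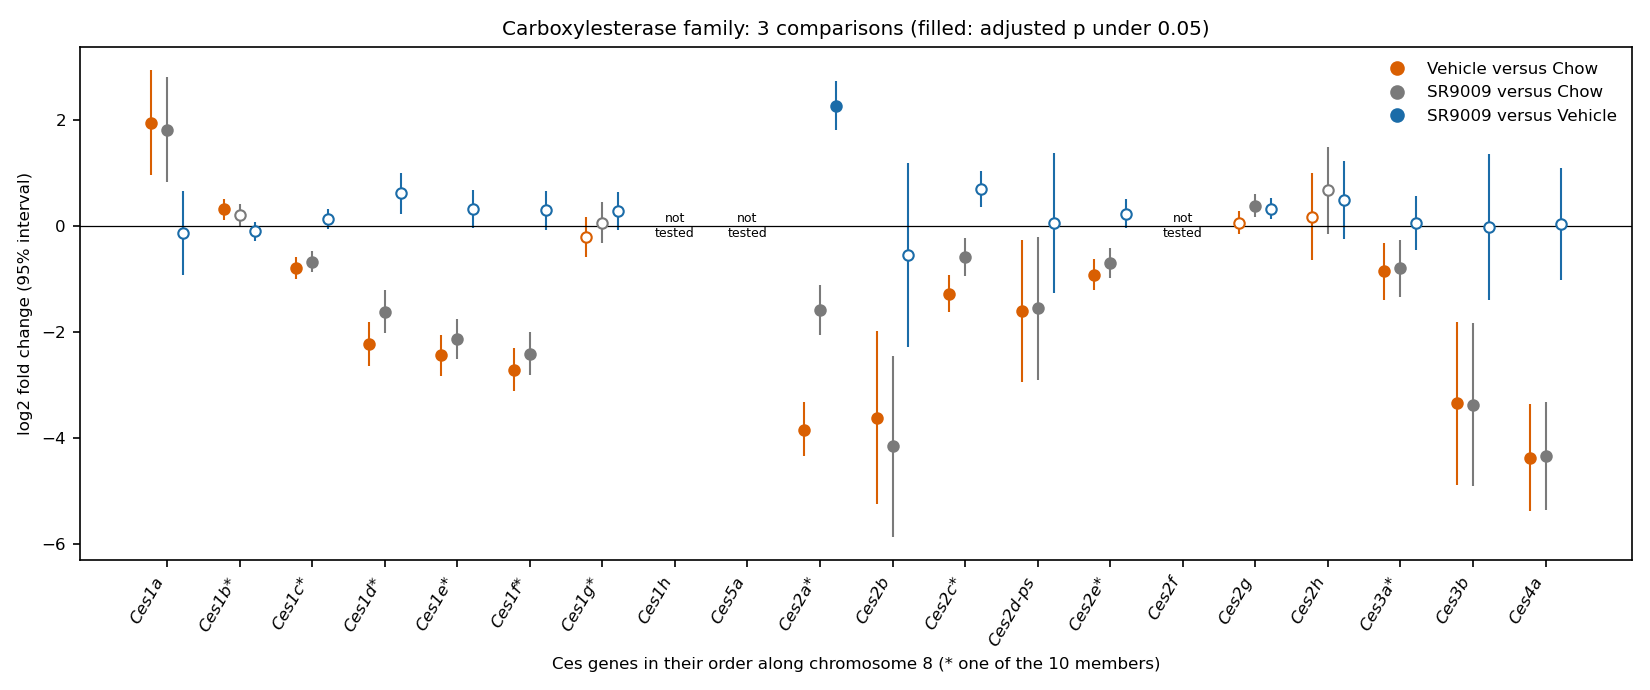
Log2 fold change with its 95% interval for the Ces genes in their order on chromosome 8 (spacing not to scale), in the 3 comparisons; filled points passed an adjusted p under 0.05. Ces2a is the only gene called in SR9009 versus Vehicle, at 2.26. Ces2b, next to it, is at -0.55 with a wide interval (-2.28 to 1.19), from 0.0498 to 1.05 CPM in the diet-fed libraries. Ces2c and Ces2e, further along, are at 0.69 and 0.22.

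Of the 10 other Ces genes, 7 were tested, and Ces1h, Ces2f and Ces5a were at or near 0 in every library (at most 0.283 CPM). In Vehicle versus Chow 4 fell, 1 rose and 2 did not pass the test. Ces3b, the copy next to Ces3a, was at 825, 488, 1446 and 1036 CPM in Chow and at 99.7, 8.47, 60.5, 74.3 and 224.3 CPM in Vehicle, where Vehicle 2 was the lowest. It fell by 3.34 ± 0.70 SE on the log2 scale (adjusted p = 0.00143). Within each library Ces3b had 0.173 to 0.418 of the counts of Ces3a in Chow and 0.0127 to 0.102 in Vehicle. Ces4a (log2 fold change -4.37) and Ces2b (-3.62) fell from low levels (at most 10.1 CPM in Chow). The value of Ces2b was -4.83 without Vehicle 5 and -2.79 without Chow 3, and its call was lost among libraries with few receptor genes (adjusted p = 0.104). In SR9009 versus Vehicle none of the 7 passed edgeR's test or DESeq2's, and 1 had an unadjusted p under 0.05. Ces2g, at 63.8 to 85.0 CPM in Vehicle and 78.2 to 100.7 CPM in SR9009, had the smallest p (log2 fold change 0.32 ± 0.09 SE, adjusted p = 0.28 by edgeR), and was called in 1 of 25 alternatives, with the receptor class as a term (adjusted p = 0.0468).

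Reads of similar copies can be assigned to the wrong gene. Of stretches of 100 bases, 13.6% of those in Ces2c occur in another gene, mostly the pseudogene Ces2d-ps, 8.13% of those in Ces2a occur in the predicted gene Gm7208, and 6.88% of those in Ces3a in Ces3b. Ces2d-ps was at most 0.794 CPM in any library, far under Ces2c. Ces1b and Ces1c share 1.29% and 1.03% of theirs, with a longest common run of 118 bases. Ces1d, Ces1e, Ces1f, Ces1g and Ces2e share none of this length. Of stretches of 50 bases, Ces2c shared 36.1%, Ces3a 25.6%, Ces2a 17.3%, Ces1c 13% and Ces1b 11.6%. Ces1d, Ces1e, Ces1f, Ces1g and Ces2e then shared 0.903% to 3.3%. Of stretches of 150 bases, Ces2a shared 2.97%, Ces2c 2.84% and Ces3a 1.56%, and the other members none. The level of Gm7208 is not given here, and the effect of wrongly assigned reads was not tested.

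Genes of related function gave a background for these changes. Their counts stand beside 25.4% of all genes lower and 29.8% higher in Vehicle versus Chow. Of the 1893 abundant genes, 61% were lower. In SR9009 versus Vehicle 0.242% of all genes were called, and 7.28% had an unadjusted p under 0.05. Of 13 hydrolases of drugs, epoxides and esters outside the family, 10 fell in Vehicle versus Chow (median -0.62), led by Afmid, an arylformamidase of tryptophan breakdown (-2.44), Ephx2, soluble epoxide hydrolase (-1.32), and Aadac, arylacetamide deacetylase (-1.44). With library totals 5 of the 13 were lower and 4 higher. In SR9009 versus Vehicle only Ephx1, microsomal epoxide hydrolase, rose: it was at 386.6, 399.7, 460.2, 419 and 440.4 CPM in Vehicle and at 570.7, 605, 616, 639 and 674 CPM in SR9009 (log2 fold change 0.56 ± 0.08 SE, adjusted p = 0.00508). Its call was lost with the replicate block (adjusted p = 0.0619) and within either receptor class. Of 14 lipases and cofactors, 7 fell and 3 rose on the diet, with lipoprotein lipase (Lpl) at 4.42, and 0 passed under SR9009 by edgeR or DESeq2, with 1 higher and 3 lower at an unadjusted p under 0.05. Of these, G0s2 (-1.04) was called in 1 of 25 alternatives, and Mgll (-0.39) and Abhd6 (0.19) in 0. Of 10 genes of triglyceride synthesis and lipoprotein assembly, 6 fell and 1 rose on the diet, including Mttp, the microsomal triglyceride transfer protein (-1.18), but with library totals 3 were lower and 4 higher. Under SR9009 0 passed by edgeR, with 2 higher and 1 lower at an unadjusted p under 0.05, while DESeq2 called 1, P4hb, a subunit of that transfer protein (0.31, adjusted p = 0.0407).

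Nuclear receptors and other factors known to act on carboxylesterase genes were mostly lower on the diet. Of 13, 9 fell and 2 rose (median -0.56), among them Nr1i2, which encodes the foreign-compound sensor PXR (-0.64), and Nr3c1, the glucocorticoid receptor (-0.73). Of all genes 25.4% were lower and 29.8% higher, and of the 1893 abundant genes 61% were lower. With library totals 3 of 13 were lower, and Nr1i2 lost its call (-0.17, adjusted p = 0.109). Under SR9009 0 of 13 passed the test by edgeR or DESeq2, with 2 higher at an unadjusted p under 0.05. These were Ahr, the aryl hydrocarbon receptor (log2 fold change 0.50, adjusted p = 0.264), whose SR9009 libraries all lay above the Vehicle libraries, and Nr1d2, which encodes REV-ERB beta (0.40, adjusted p = 0.388). Ahr was called in 1 of 25 alternatives and Nr1d2 in 0. Nr1i2 was at 0.00 and Nr1i3, which encodes the related sensor CAR, at 0.31 (adjusted p = 0.916). Of 16 genes known as induced through CAR or PXR, 9 fell and 4 rose on the diet, and 10 rose and 0 fell under SR9009. For all genes the shares were 25.4% lower and 29.8% higher on the diet, and 0.165% higher and 0.077% lower under SR9009. Among the 1893 abundant genes 61% were lower on the diet. Cyp2c29 and Cyp2c37, cytochrome P450 genes, fell on the diet (log2 fold changes -4.27 and -1.88), while Gadd45b rose (3.21). Under SR9009 Cyp2c29 rose by 5.90, Cyp2c55 by 4.13 and Cyp2c37 by 1.94, and Gadd45b was at -0.13 (adjusted p = 0.941 by edgeR). Cyp2c29 was at 59.8 to 116.5 CPM in Vehicle, 1206 to 1977 CPM in Chow and 3990 to 5454 CPM in SR9009, where it passed its Chow level, while Ces2a did not. In SR9009 versus Chow 10 of the 16 were called higher, 0 lower and 6 neither, beside 30.5% of all genes higher. Cyp2c37 was at 0.05 there (adjusted p = 0.762 by edgeR).

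By Pearson correlation of log2 CPM over all 14 libraries, the genes outside the members most like Ces2a were Cnmd (0.955), Slc46a3 (0.950), Wbp1 (0.946), Tex261 (0.944) and Pgrmc1 (0.938). These values describe libraries of 3 groups that share the separation of Chow from the diet-fed mice, and the genes were the 5 highest of all genes tested outside predicted genes.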

How the data were processed

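Liver RNA of 14 mice was analysed from the deposited raw counts per gene; 15 samples are described, and Chow replicate 5 was not analysed here. Each library is labelled as a separate sample of its group, and p-values measure the spread between these samples. Per the submitters' processing notes the authors used STAR 2.7.11b and GRCm39. Counter, annotation and strandedness: not given in the sources used here. Antisense, overlapping and near-identical genes are therefore uncertain. Symbols came from GENCODE M21 and matched 51880 identifiers (90.8%) holding 99.6% of counts. It served for names, exon lengths and shared stretches, and no coordinates were taken from it.

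The 10 members, the gene lists and the tests were chosen with earlier results of these data known. The background of abundant genes and the ratios between genes were added after the values were seen. The 13 motifs searched were chosen after promoter windows had been viewed, TTATGTAA because it was visible in them.

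Counts were fitted with edgeR 4.0.16 in R 4.3.3 (filterByExpr with minimum count 10 and minimum total 15, TMM, robust quasi-likelihood, all 3 groups in 1 fit, Benjamini-Hochberg over 18181 genes, threshold 0.05). The same procedure was also run on simulated counts, with means and spread taken from the real data and their fit. The filter kept 99.9% of counts. The common coefficient of biological variation was 0.211. A floor of 3 counts was 0.0607 to 0.124 CPM, counting error only. The members were always named. Of each list the rule named up to 3 genes by adjusted p in Vehicle versus Chow and in SR9009 versus Vehicle, of which a part is printed; Nr1i3, Ephx1 in single libraries and other single values were printed after they were seen. Alternatives were DESeq2 1.42.0, limma-voom (limma 3.58.1), other scalings, other filters, fits without the group not compared, a replicate block, receptor classes and leaving out each library. The receptor classes, by how many olfactory, vomeronasal and trace amine receptors had a count, were known from earlier work on these data. All 4 Chow libraries counted as few, Chow 1 with 113 genes, at the boundary of 113.8. The lowest mean chi-square per gene of the 26 within-group pairs was 15.9, so none was a repeat.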

Additional observations from a re-analysis of the deposited data

Results flagged for a closer look

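For each of 144 combinations of gene and group, the highest or lowest library was checked for a gap to the rest that is large for its range, which chance gives in about 1 in 20 groups. There were 4 such libraries, 2 of them among the 30 combinations of a member and a group. Ces1b was at 99.3 CPM in Vehicle replicate 3 against 88.1 to 90.9 in the others, and at 98.4 CPM in SR9009 replicate 5 against 79.5 to 84.4. Ces2b, a low gene, was at 1.05 CPM in Vehicle replicate 5 against 0.0607 to 0.228. Ces2h was at 0.80 CPM in Vehicle replicate 2 against 1.11 to 1.24.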

How the results depend on the processing

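Ces2a was lower in Vehicle than in Chow in all 23 alternatives (-3.96 to -3.36) and called in each, and was called higher in SR9009 than in Vehicle in 24 of 25. In SR9009 versus Vehicle the main setting called 44 genes and 1 member. DESeq2 called 212 and 2, the receptor class as a term 106 and 2, and libraries with many receptor genes 23 and 0. The replicate block called 15 genes, still with Ces2a (2.30, adjusted p = 0.000858). Leaving out 1 library gave 18 to 56 genes and 1 to 2 members. The share of calls that were higher was 68.2%, and 53.5% with only the 2 groups, 53.8% with the class term, 93.3% with the block and 80.6% in libraries with few receptor genes.

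In Vehicle versus Chow the members called higher went from 1 to 0 in libraries with few receptor genes (Ces1b, 0.30, adjusted p = 0.0812). In SR9009 versus Chow the members called higher went from 0 to 1 with limma-voom, 1 with the filter of at least 1 CPM and 2 with library totals, and were 0 to 1 on leaving out a library; the 1 came without Chow replicate 1. Members called lower went from 8 to 5 with library totals, which moved the median of all genes to 0.50 (Vehicle versus Chow) and 0.47 (SR9009 versus Chow) and the share of higher calls from 54.0% to 88.3% and from 54.3% to 86.3%. Values that the main setting did not call changed sign: Ces1g (0.27 with library totals in Vehicle versus Chow; -0.07 without Chow replicate 3 in SR9009 versus Chow), and in SR9009 versus Vehicle Ces3a (-0.15 with few receptor genes; -0.14 to 0.18 on leaving out a library, below 0 without Vehicle replicate 2 and, at -0.04, SR9009 replicate 3) and Ces2b (-0.84 to 0.66, the latter without Vehicle replicate 5). Beyond what the construction of an alternative shows, the cause was not tested.

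Replicate numbers did not pair the libraries: same-numbered pairs had correlations from -0.362 to 0.196, 3 of 13 were over 0.1, and 1 library was closest to its own number.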
